A study of Mus musculus with 2 samples.

Results

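The loops described here are the strongest chromatin contacts listed for mouse cortex in a study of stroke, namely all autosomal loops joined by 51 or more paired-end tags (PETs), sequenced fragments with an end in each of the loop's anchors. There were 286 such loops among the 15384 autosomal loops of the stroke list and 322 among the 14510 of the Sham list. They were selected on their number of PETs, so PETs and everything computed from PETs are given as a description and with no test. The contacts were measured by Hi-C, which ligates neighbouring pieces of folded chromatin and reads both ends of each product.

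In the group labelled MCAO_6h, blood flow in the middle cerebral artery was blocked with a filament over 1 h (occlusion, MCAO), and ipsilateral cortex of the ischemic territory was collected after 6 h of recovery. Sham mice had the operation without the block and the same 6 h of recovery. By the labels 3 cortices were taken in each group, and at which step they were combined is not stated there; strain, sex and age are not among the labels used here. A single loop list stands for each group, with a library total of 40550536 PETs for MCAO and 34974213 PETs for Sham, so no difference below has a replicate check and none was tested between conditions. Cortex holds many cell types, and Hi-C contacts do not show which of them a loop comes from, so the tissue label could not be checked against marker expression.

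Chromatin loops hold distant stretches of a chromosome together. Many form when the cohesin ring draws DNA through itself until it meets the insulator protein CTCF bound at both ends, and others join promoters to each other or to enhancers. In neurons, genes of cell identity and adhesion often lie in wide stretches with few other genes, where regulatory elements can sit far from the promoter they act on.

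The promoters at the ends of the strongest loops are shown for 1 loop per list, the first by PETs in each with a promoter of the sequence table in both anchors. In MCAO this loop joined chr13:89632384-89827957 to chr13:90804467-90928089 (mm10). Its anchors hold the start of Vcan, which encodes the matrix proteoglycan versican, and that of Rps23, a protein of the small ribosomal subunit. In Sham it joined chr1:78632336-78781212 to chr1:79544177-79712819 and held the starts of Utp14b, a factor of small ribosomal subunit assembly, and Ap1s3, a subunit of a clathrin adaptor. Each sequence (RefSeq, GRCm38.p6) runs 5′ to 3′ from 250 bases before to 50 bases after the start. Capitals mark GGNGGCAG, 8 letters of the core of the CTCF motif, searched on both strands. Vcan lies on the minus strand at chr13:89742463-89742762, Rps23 on the plus strand at chr13:90922872-90923171, Utp14b on the plus strand at chr1:78658190-78658489 and Ap1s3 on the minus strand at chr1:79671923-79672222.
Vcan: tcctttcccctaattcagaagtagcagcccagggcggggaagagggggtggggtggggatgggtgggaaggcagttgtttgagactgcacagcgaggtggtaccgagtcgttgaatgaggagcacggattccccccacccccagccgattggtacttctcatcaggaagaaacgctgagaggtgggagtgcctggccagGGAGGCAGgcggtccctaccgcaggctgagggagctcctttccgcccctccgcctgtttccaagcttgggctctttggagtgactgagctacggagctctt
Rps23: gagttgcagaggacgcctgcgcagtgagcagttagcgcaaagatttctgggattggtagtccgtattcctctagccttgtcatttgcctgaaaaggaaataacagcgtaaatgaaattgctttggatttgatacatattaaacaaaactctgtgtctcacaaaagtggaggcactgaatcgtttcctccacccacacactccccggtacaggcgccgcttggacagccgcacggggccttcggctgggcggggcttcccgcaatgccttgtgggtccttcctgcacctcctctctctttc
Utp14b: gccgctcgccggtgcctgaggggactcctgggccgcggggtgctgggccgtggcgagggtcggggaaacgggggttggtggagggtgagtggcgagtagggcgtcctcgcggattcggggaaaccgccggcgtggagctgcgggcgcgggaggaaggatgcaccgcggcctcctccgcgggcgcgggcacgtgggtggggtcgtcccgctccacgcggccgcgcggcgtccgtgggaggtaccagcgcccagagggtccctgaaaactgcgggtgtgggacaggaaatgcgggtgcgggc
Ap1s3: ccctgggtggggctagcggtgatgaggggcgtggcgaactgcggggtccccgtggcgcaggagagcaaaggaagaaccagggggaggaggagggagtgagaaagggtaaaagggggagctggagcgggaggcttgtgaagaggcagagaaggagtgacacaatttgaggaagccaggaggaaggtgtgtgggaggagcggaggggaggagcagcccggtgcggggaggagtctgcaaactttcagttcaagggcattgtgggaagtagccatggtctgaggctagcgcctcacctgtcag

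Of these 4 promoters, that of Vcan held the letters once. Among all promoters with a start in an anchor of a strong loop, 49 of 360 (13.6%, 95% exact binomial interval 10.2 to 17.6%) held them in MCAO and 14.3% of 421 did in Sham, against 13.7% of all 20085 autosomal promoters of the table. The share at the strong loops was thus near that of all promoters. These letters in a promoter say nothing of binding, and the anchors reach far beyond the promoters.

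The strong loops were wide at their anchors and mostly 0.5 to 1 Mb long, as shown in the plots of PETs by anchor width and of span. The mean width of a loop's anchors had a median of 93.2 kb in MCAO and 97.7 kb in Sham, where the other loops of each list had medians of 21.8 kb and 25.9 kb. Anchors of at least 60 kb belonged to 264 of the 286 strong loops in MCAO (92.3%, exact interval 88.6 to 95.1%) and to 309 of 322 in Sham (96.0%, 93.2 to 97.8%). Only 4.65% of the other loops in MCAO and 4.53% in Sham had anchors that wide.

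Every loop with a mean anchor width of at least 100 kb was a strong one, 95 in MCAO and 145 in Sham. Among the strong loops, PETs and width were correlated across loops (Spearman correlation 0.76 in MCAO over 286 loops and 0.86 in Sham over 322), where both are measures of the same loop in the same library. The deposited density is PETs per kb of anchor scaled to the library total. Its median was 0.00875 among strong loops and 0.00981 among all other loops in MCAO, and 0.0102 and 0.00698 in Sham. Other loops with anchors of at least 60 kb had lower medians, 0.00646 in MCAO and 0.00755 in Sham. Density is computed from PETs, on which the strong loops were chosen. The definition of the authors' enrichment ratio is not given in the sources used here. By its values it appears to be computed from PETs too, so its contrasts are a description. It was lower for strong loops than for all other loops (median 4.10 against 8.0 in MCAO and 3.87 against 7.0 in Sham). Against other loops with anchors of at least 60 kb it was higher, as those had medians of 3.56 in MCAO and 3.33 in Sham.

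**Figure D1:**
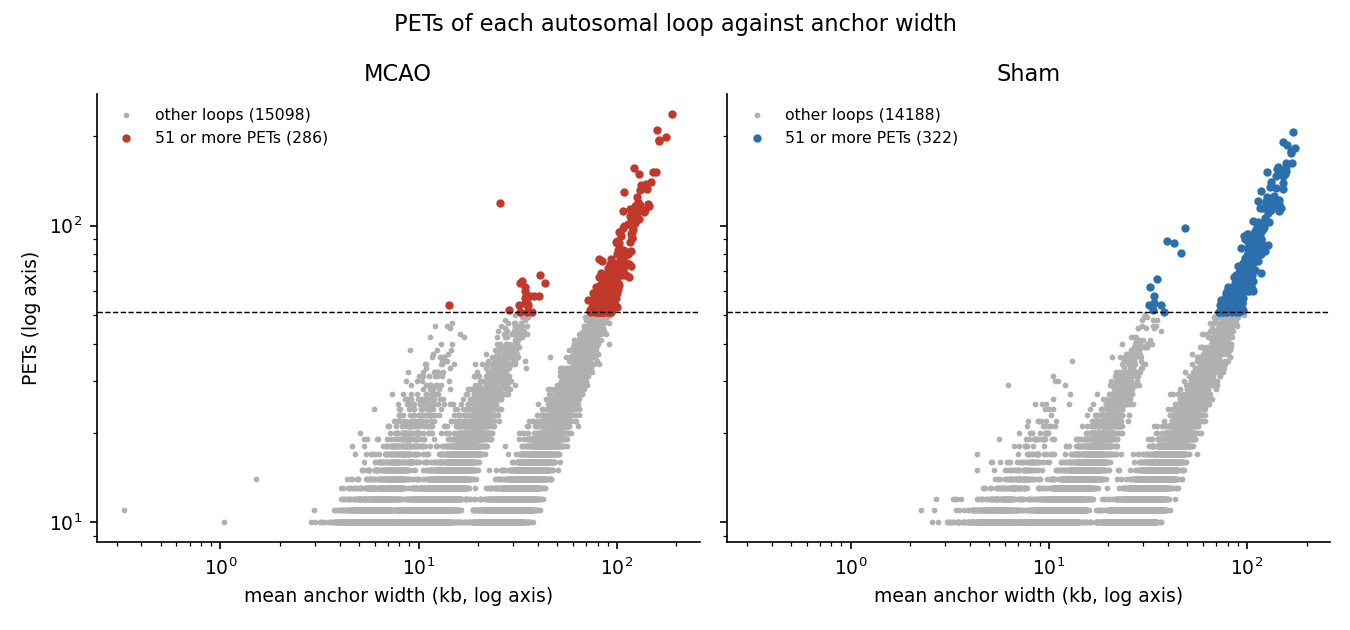
PETs of each autosomal loop (y, log axis) against the mean width of its anchors in kb (x, log axis), MCAO on the left and Sham on the right. Coloured points are the 286 and 322 loops at or above the dashed line at 51 PETs, and grey points are the other loops. Points form separate diagonal bands, and the strong loops lie at the top of the widest band with a small group of narrower loops on its left.

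The strong loops of either list left a gap in width: 0 of the 1119 MCAO loops and 0 of the 1082 Sham loops with anchors of 50 to 70 kb reached 51 PETs. They were therefore also described as wide loops (60 kb or more) and narrow loops (under 60 kb, 22 in MCAO and 13 in Sham), a division chosen after the values were seen. Around the minimum, the 38 MCAO loops with 51 or 52 PETs had a median width of 84.0 kb and the 35 with 49 or 50 PETs one of 78.4 kb. In Sham the 23 loops just inside had 81.3 kb and the 32 just outside 80.2 kb.

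Span, the distance between anchor midpoints, had a median of 726 kb in MCAO (quartiles 599 and 928 kb) and 790 kb in Sham (644 and 1002 kb). The other loops had medians of 301 kb and 368 kb. A span of 500 kb to 1 Mb was found for 69.6% of the strong loops in MCAO and 67.4% in Sham, and for 21.4% and 25.3% of the other loops. The longest strong loops spanned 1913 kb in MCAO, from Cmpk2 to Dcdc2c on chromosome 12, and 2988 kb in Sham, from the Med17 end to Chordc1 on chromosome 9. Cmpk2 encodes a mitochondrial nucleotide kinase and Chordc1 a co-chaperone of Hsp90. The shortest spanned 77.9 kb in MCAO, ending at the glycosyltransferase gene Galnt15, and 158 kb in Sham, inside the gene Spata13.

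**Figure D2:**
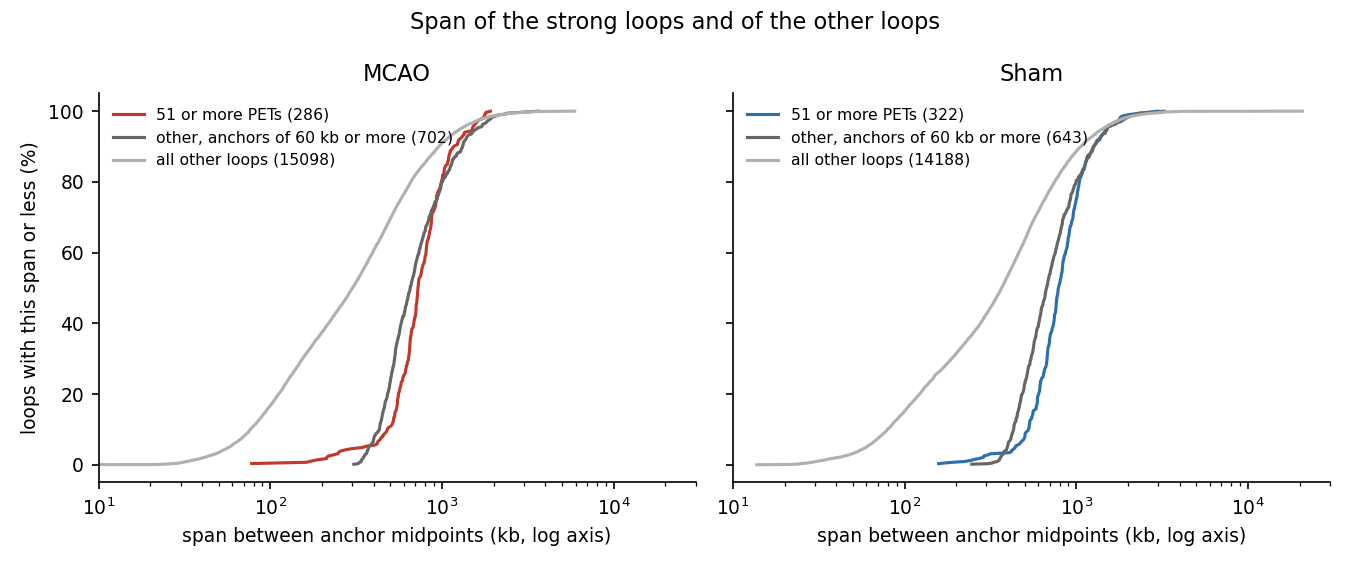
Cumulative share of loops (y, %) by span in kb (x, log axis), MCAO on the left and Sham on the right, for loops with 51 or more PETs (coloured), other loops with anchors of 60 kb or more (dark grey) and all other loops (light grey). The strong loops have median spans of 726 kb in MCAO and 790 kb in Sham, to the right of all other loops, and lie close to the other loops with wide anchors.

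The loop with most PETs in MCAO joined St3gal1, a sialyltransferase that caps O-linked sugar chains, to the zinc finger gene Zfat on chromosome 15 (chr15:67078837-67223700 to chr15:68038624-68274389). It had 238 PETs in MCAO, or 5.87 PETs per 1000000 PETs of the library (PPM, exact Poisson interval 5.15 to 6.66), against 116 PETs or 3.32 PPM for its nearest Sham counterpart. A counterpart here is a loop of the other list whose 2 anchor midpoints each lie no farther away than 1 anchor width, that of the wider anchor. The anchors averaged 190 kb in MCAO and 130 kb in this Sham loop. Sham listed 4 counterparts in all, with 152 PETs together over 432 kb of anchors, where the MCAO loop covers 381 kb.

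The loop from Vcan to Rps23 was second in MCAO and its counterpart was first in Sham. It had 210 PETs in MCAO (5.18 PPM, 4.50 to 5.93) and 207 PETs in Sham (5.92 PPM, 5.14 to 6.78), and these intervals overlap. The Sham anchors also reached the end of Hapln1, which encodes a link protein of the same hyaluronan matrix as versican, and stopped short of Rps23. Between the anchors lay Xrcc4, a factor of DNA end joining, and Tmem167. It was the only loop among the first 5 of both lists.

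The next 3 MCAO loops by PETs stood near 200 PETs. At Emx2, a homeobox factor that patterns the cortex, a loop of 199 PETs ran to a stretch with no gene end. The nearest of its 3 Sham counterparts had 60 PETs, and the 3 together had 126. From Tnip3 and Ndnf to the spindle checkpoint gene Mad2l1 there were 194 PETs in MCAO. The nearest of 2 Sham counterparts had 75 PETs, and the 2 together had 114. Ndnf encodes a secreted neurotrophic factor found in superficial cortical interneurons. From Arl14ep and Fshb, the hormone subunit gene, the values were 193 in MCAO and 140 in Sham.

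In MCAO 2 other loops of the first 10 ended at genes of cortical cell types, Gli3 and Gad2. Gli3, a transcription factor of hedgehog signalling, was joined over 1076 kb to Mrpl32 and Psma2 by 156 PETs in MCAO. Sham listed 3 loops there, with 10 PETs in the nearest, up to 18 in the others and 39 together. Gad2, which encodes an enzyme that makes the inhibitory transmitter GABA, ended a loop of 152 PETs in MCAO with anchors of 304 kb in all. In Sham 6 loops lay within 1 anchor width of it, holding up to 57 PETs each and 150 together over 524 kb of anchors. Whether these Sham loops hold the same contacts as the MCAO loop was not tested, and weaker MCAO loops of the region were not counted. Such sums depend on how many loops were listed in a region.

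In Sham the next loops after that at Vcan joined the mitochondrial genes Mrps30 and Nnt (191 PETs), Acsl3 and Utp14b to Ap1s3 and Wdfy1 (187), Oxct1 to C7 and Prkaa1 (183), and the inside of Arhgap15 to Zeb2 (179). Their nearest MCAO counterparts had 17, 10, 17 and 38 PETs, and for all but the first MCAO listed further loops. Oxct1 is needed to burn ketone bodies, Prkaa1 encodes a catalytic subunit of the energy sensor AMPK, and Zeb2 is a transcription factor of cortical development. The MCAO region from Oxct1 to C7 also held a second loop of 125 PETs, and its 2 loops together had 142 PETs over 335 kb of anchors, against 183 PETs over 349 kb in Sham. At Zeb2 the MCAO list had 4 loops, with 101 PETs together over 417 kb of anchors against 332 kb for the Sham loop, and from Acsl3 to Ap1s3 it had 2, with 35 PETs together. At Mrps30 and Nnt the MCAO list had a single loop of 17 PETs, with anchors of 33.9 kb in all against 304 kb in Sham.

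Gene ends were found near most strong loops. An end of a protein-coding gene lay within 2.5 kb of an anchor in 254 of 286 loops in MCAO (88.8%, exact interval 84.6 to 92.2%) and 282 of 322 in Sham (87.6%, 83.5 to 91.0%). Among all autosomal loops the share was 61.2% in MCAO and 52.5% in Sham. Among other loops with anchors of at least 60 kb, whose median widths of 68.2 kb in MCAO and 68.6 kb in Sham were still below those of the strong loops, it was 75.5% in MCAO and 70.8% in Sham. Both anchors had a gene end in 39.9% of the strong loops in MCAO and 37.9% in Sham. That share was 28.1% in MCAO and 28.3% in Sham among other loops with anchors of at least 60 kb, and 20.6% and 17.9% among all other loops.

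Counted per length of anchor, the strong loops held fewer genes than all other loops, and nearly as many as other wide ones. There were 11.1 genes per Mb of anchor in MCAO (exact Poisson interval 10.2 to 12.04) and 10.4 in Sham (9.64 to 11.2), against 23.6 and 18.9 for the other loops. Other loops with anchors of at least 60 kb had 11.9 and 11.7. The DNA between the anchors held 2.15 genes per Mb in MCAO and 1.96 in Sham, against 3.94 and 3.29 for all other loops and 2.44 and 2.34 for those with anchors of at least 60 kb. No gene lay between the anchors of 55.2% of the strong loops in MCAO (exact interval 49.3 to 61.1%) and 49.4% in Sham (43.8 to 55.0%). All other loops had 53.4% in MCAO and 56.7% in Sham, and those with anchors of at least 60 kb had 47.4% and 47.9%. The most gene-filled loop in MCAO enclosed 32 genes on chromosome 11, from a group with the heat-sensing channel gene Trpv1 to Rap1gap2. In Sham a loop of 51 PETs between 2 parts of the histone gene cluster on chromosome 13 enclosed 41 genes, and its MCAO counterpart had 14 PETs.

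The genes at strong loops are described by list, with no test of a list against other genes. A gene given for a single list of loops may lie at a weaker loop of the other, below 51 PETs. Of all 20665 autosomal protein-coding genes, 552 (2.67%) had an end at a strong loop in MCAO and 607 (2.94%) in Sham. Of 48 transcription factors of cortical projection neurons, 10 did in MCAO and 12 in Sham, with 6 in both, among them Bcl11a, Id2, Lmo4, Mef2c and Pou3f3. In MCAO alone there were 4 (among them Bcl11b, Nr2f2 and Zbtb20) and in Sham alone 6 (Ldb2, Nfib, Pou3f1, Satb1, Tshz3, Zeb2). At loops of any strength the list had 40 of 48 genes in MCAO and 41 in Sham, against 10254 and 9188 of all 20665.

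At Bcl11a, a zinc finger factor also known as Ctip1, a loop of 1796 kb in MCAO and 1771 kb in Sham had 97 PETs in MCAO and 81 in Sham, which is 2.39 and 2.32 PPM. Sham listed a further Bcl11a loop with 112 PETs. The nearest of its 3 MCAO counterparts had 30 PETs, and the 3 together had 53. Zbtb20, another zinc finger factor, was joined to Tigit by 110 PETs in MCAO and 10 in Sham.

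Inhibitory neuron genes at strong loops numbered 6 of 23 in MCAO and 3 in Sham. Dlx5 and Dlx6, a pair of homeobox genes that share 1 loop in each list (51 PETs in MCAO, 55 in Sham), were in both, although the MCAO loop had no Sham counterpart. Gad2, Maf and Sox6 were among those found in MCAO alone, and Npas3, in which both anchors lay, in Sham alone. Of 39 glutamate and GABA receptor genes 4 were found in MCAO and 6 in Sham, with the NMDA receptor gene Grin2a (62 PETs in MCAO, 69 in Sham) and the metabotropic receptor gene Grm3 (55 in MCAO, 76 in Sham) in both. The AMPA receptor genes Gria1 and Gria2 reached 51 PETs in MCAO, with up to 88 and 111 PETs. Each of these loops had 3 Sham counterparts, with 62 PETs together at Gria1 and 70 together at Gria2, of which the nearest Gria2 loop had 46 (1.32 PPM). Those in Sham alone included Gabra5, Gabrg3 and Grm5.

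Of 85 adhesion and guidance genes, 8 were at strong loops in MCAO and 13 in Sham. Sema3a and Sema3e, which encode secreted guidance proteins, were joined to each other in both lists by 75 PETs in MCAO and 68 in Sham. In Sham Sema3a was also joined to Sema3d over 1026 kb by 94 PETs. The nearest of 2 MCAO counterparts had 24 PETs, and the 2 together had 36. The cadherin gene Cdh11 had loops of 62 PETs in MCAO and 153 in Sham, which were no counterparts of each other.

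Homeobox regulators numbered 15 of 117 in MCAO and 6 in Sham. Of the 15, 9 were genes of the Hoxd cluster, which specify position along the body axis and share a single loop of 68 PETs, so they count as 1 region. Other developmental transcription factors numbered 9 of 60 in MCAO and 7 in Sham. Ebf1, Osr1 and Tbx15 were among those in both. Astrocyte genes at strong loops numbered 3 of 26 in MCAO and 0 in Sham, and at loops of any strength 20 and 15. The 3 were Gli3, Id4 and Sox9, the last a factor of glial fate with 71 PETs in MCAO and 23 in the Sham counterpart.

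Genes of the acute response to stroke were few at strong loops, as were genes as a whole. None of 19 hypoxia response genes and none of 26 inflammatory mediators had an end there in either list, although 11 and 10 of them in MCAO and 12 and 7 in Sham were at some loop. Of 38 early response genes, 2 were at strong loops in MCAO and 3 in Sham: Klf4 in both, Nr4a1 in MCAO, and Bdnf and Nr4a3 in Sham. Of 20 heat shock genes Chordc1 was found, in Sham. The early response shares of 5.26% in MCAO and 7.89% in Sham stand beside 2.67% and 2.94% of all genes, at which lists of this size hold about 1 gene or none. Oligodendrocyte genes numbered 1 of 20 in MCAO (Pdgfra) and 2 in Sham (Pdgfra, Ugt8a), microglia genes 1 of 19 in MCAO (Sall1) and 0 in Sham, and endothelial and mural genes 0 of 23 in MCAO and 1 in Sham (Fli1). Housekeeping genes (18) and chromatin architecture genes (24) had 0 in both lists. With lists of this size, 1 or 2 genes decide each share, and neighbouring genes share loops.

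**Figure D3:**
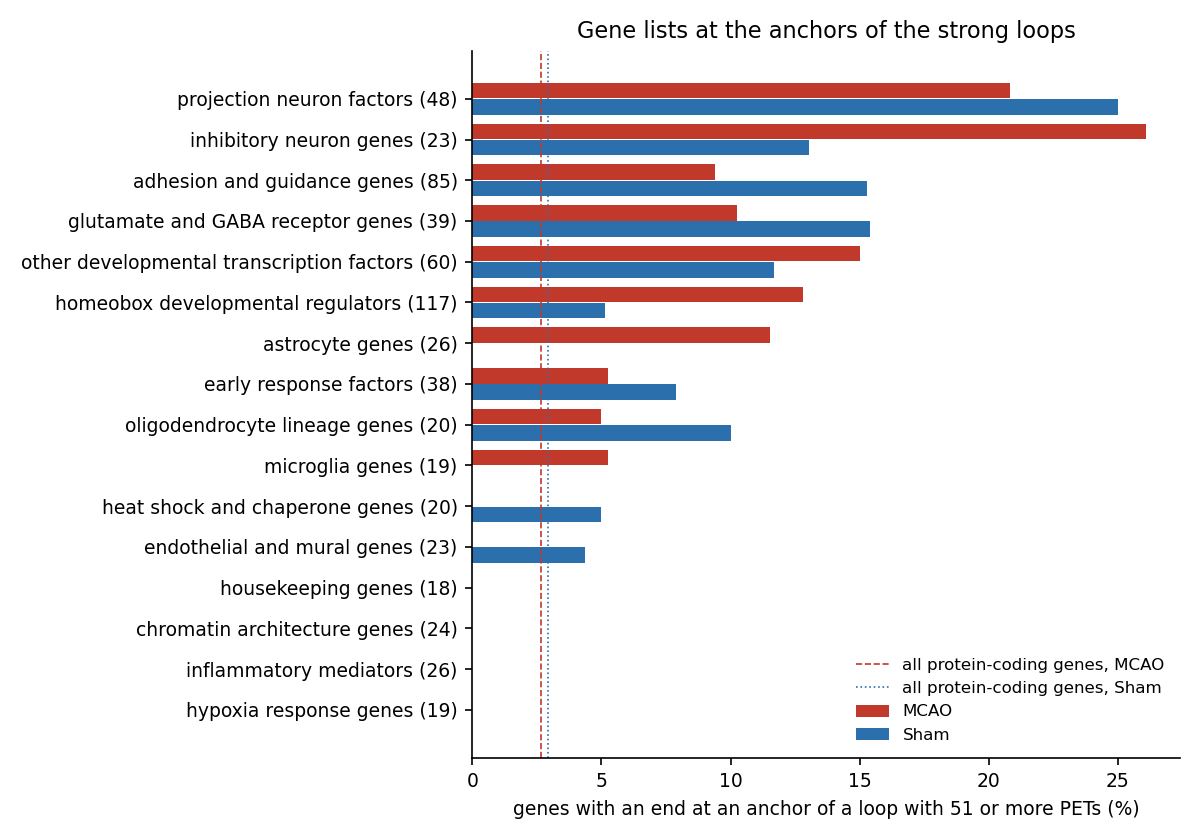
Share of the genes of each list (number of genes in parentheses) with an end within 2.5 kb of an anchor of a loop with 51 or more PETs, MCAO as the upper and Sham as the lower bar of each pair. Dashed and dotted lines give the share of all autosomal protein-coding genes, 2.67% in MCAO and 2.94% in Sham. Projection neuron factors reach 20.8% in MCAO and 25.0% in Sham, and 4 lists have no gene at a strong loop.

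Most strong loops had a counterpart in the other list. One was found for 233 of 286 strong MCAO loops (81.5%, exact interval 76.5 to 85.8%), against 26.7% of all autosomal MCAO loops. For Sham it was 292 of 322 (90.7%, 87.0 to 93.6%), against 27.7% of all. The allowed distance is 1 anchor width and so is larger for wide anchors: among other loops with anchors of at least 60 kb, 57.8% in MCAO and 65.8% in Sham had a counterpart. Within a fixed distance of 10 kb, 14.0% of the strong loops had one in each list, close to 11.4% of the other loops in MCAO and 11.99% in Sham.

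Counterparts of loops chosen for many PETs have fewer by that choice, so their values are a description. Of the strong loops, 88 in MCAO (30.8%) and 92 in Sham (28.6%) had a counterpart that itself had 51 or more PETs, against 12.4% and 8.71% of other loops with anchors of at least 60 kb. The nearest counterpart had a median of 34 PETs and a width of 62.9 kb for strong MCAO loops, and 28 PETs and 55.3 kb for strong Sham loops. Several counterparts were listed for 91 MCAO loops and 140 Sham loops.

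Strong loops without a counterpart numbered 53 in MCAO and 30 in Sham. In MCAO the first by PETs joined Uaca to Rplp1, a ribosomal stalk protein, and the mitotic kinesin gene Kif23 on chromosome 9 (116 PETs). The next ran from Vps13c to the inside of Rora, a nuclear receptor gene (105 PETs), and others ended at Chsy3 (104), at the glucocorticoid receptor gene Nr3c1 (94) and inside and at the growth factor gene Nrg1 (80). In Sham they ended at Bambi, a decoy receptor of TGF-beta signalling (100), at the neurotrophin gene Bdnf (99), at the TGF-beta receptor gene Tgfbr1 and the nuclear receptor gene Nr4a3 (96), and at Slc35f1 and Pln (90).

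A missing counterpart did not always mean that a region lacked strong loops. In MCAO a loop of 80 PETs joined the inside of Adcy2 to Tent4a (chr13:68734743-68890908 to chr13:69438867-69509958), and it had no Sham counterpart. The seventh Sham loop, with 163 PETs, joined a neighbouring stretch with Mtrr and the end of Adcy2 (chr13:68564755-68723193) to Tent4a (chr13:69405703-69561212), and its MCAO counterpart was a narrow loop of 11 PETs. Both lists held strong contacts of Tent4a, a gene for a non-canonical poly(A) polymerase, with anchors that met different parts of the same neighbourhood.

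For a comparison of PETs, loops that were each other's nearest were taken as pairs. A strong loop was part of 427 pairs: 147 with 51 or more PETs in MCAO alone, 73 in both lists and 207 in Sham alone. PPM were higher in MCAO in 170 pairs and lower in 257, with a median log2 ratio of MCAO over Sham of -0.67 (quartiles -1.89 and 0.82). The ratio was at least 2-fold up in MCAO in 96 pairs (22.5%) and at least 2-fold down in 180 (42.2%). Over all 3679 pairs these shares were 8.32% and 18.9%. Pairs chosen for a high value in either list spread apart by that choice, so the shares are read as a description.

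The ratio of PETs followed the ratio of anchor widths closely (Spearman correlation 0.98 over 427 pairs that share both libraries). Of the 427 pairs, 202 had widths more than 2-fold apart. In the 84 pairs of like width, within 0.32 on the log2 scale, a division chosen after the values were seen, the median log2 ratio was -0.14 (range -1.15 to 0.69), with 32 pairs higher and 52 lower in MCAO. With PETs as deposited, not scaled for depth, this median was 0.08. Over all 3679 pairs the median was -0.21 scaled and 0 as deposited, so the pairs of like width were no lower than pairs in general. None of the 84 pairs of like width was 2-fold higher in MCAO and 2 were 2-fold lower. The interval of the scaled ratio, for counting error alone, lay wholly below 0 in 24 of them and wholly above 0 in 2. Among all 427 pairs it lay below 0 in 226 and above 0 in 122. Such a count was not made over all 3679 pairs. It was also not made with PETs as deposited, where the median of the 84 pairs was above 0. Per kb of anchor, the median log2 ratio of all 427 pairs was -0.12, beside -0.13 over all 3679 pairs.

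**Figure D4:**
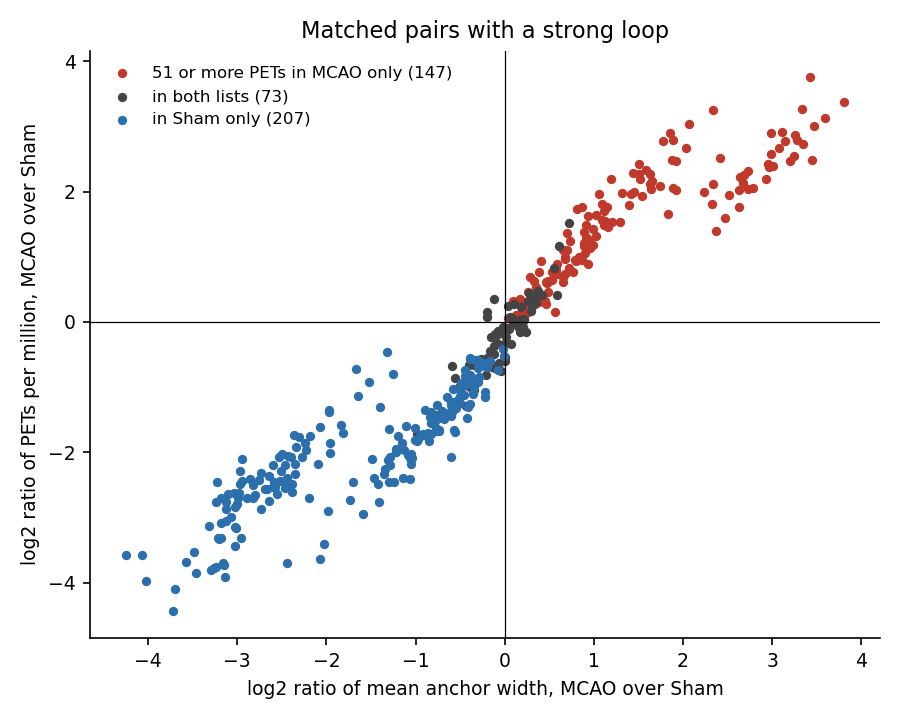
Log2 ratio of PPM (y) against log2 ratio of mean anchor width (x), both MCAO over Sham, for the 427 pairs with a strong loop. Red points have 51 or more PETs in MCAO alone (147), dark points in both lists (73) and blue points in Sham alone (207). The points rise along the diagonal, and the 84 pairs of like width range from -1.15 to 0.69.

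The largest ratios belonged to pairs of a wide and a narrow loop. In favour of MCAO, the Gli3 loop had a log2 ratio of 3.75 (interval 2.83 to 4.84), a loop ending at the phosphodiesterase gene Pde3a one of 3.37, a loop from the inside of Myo16 to the collagen gene Col4a1 one of 3.27 and the loop from Zbtb20 to Tigit one of 3.25. In each the Sham loop had 10 PETs, the smallest number listed, and anchors of 9.18 to 25.0 kb. In favour of Sham, the loop from Acsl3 to Ap1s3 had -4.44 (-5.52 to -3.53), that from Mtrr to Tent4a -4.10, one from the Slamf8 group to the Cadm3 group on chromosome 1 -3.97 and one ending at Grb14 -3.91. Their MCAO loops had 10 to 12 PETs. Each ratio takes the paired loop alone. Sham had 39 PETs together over 3 loops at Gli3, and MCAO 35 together over 2 loops from Acsl3 to Ap1s3. MCAO also had the loop of 80 PETs from the inside of Adcy2 to Tent4a.

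The 2 pairs of like width that were 2-fold lower in MCAO were picked by their ratio and have no replicate check. The loop from Olfm3, which encodes a secreted synaptic protein, had 34 PETs in MCAO and 65 in Sham (0.838 and 1.86 PPM), a log2 ratio of -1.15 (-1.79 to -0.53). A loop ending at Kctd12, an auxiliary subunit gene of GABA-B receptors, had 43 PETs in MCAO and 78 in Sham, with -1.07 (-1.64 to -0.52).

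The narrow strong loops, 22 in MCAO and 13 in Sham, had more PETs per kb of anchor, which the minimum of PETs and the division by width fix between them. Their median density was 0.0200 in MCAO and 0.0245 in Sham, against 0.00859 and 0.0101 for the wide strong loops. They held 26.0 genes per Mb of anchor in MCAO (exact Poisson interval 18.5 to 35.5) and 30.8 in Sham (20.8 to 44.0). The wide strong loops held 10.7 in MCAO and 10.1 in Sham, and all loops outside the strong set 23.6 and 18.9. In MCAO the narrow strong loops were thus near these other loops. In Sham the loop of the histone gene cluster gave 10 of the 30 genes counted. A counterpart within 10 kb was found for 14 of the 22 narrow strong loops in MCAO and 9 of 13 in Sham. Of the wide strong loops 9.85% and 11.7% had one that close.

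The densest strong loop of either list joined Hs1bp3 to Rhob, a gene for a small GTPase, over 162 kb on chromosome 12 (chr12:8320103-8352360 to chr12:8488614-8507929). It had 119 PETs in MCAO, or 2.93 PPM (2.43 to 3.51), at a density of 0.0569. Sham listed 3 narrower loops there. The nearest had 15 PETs (0.429 PPM, density 0.0286) and the 3 together had 49 PETs, or 1.40 PPM, over 49.9 kb of anchors summed by loop, where the MCAO loop covers 51.6 kb. The MCAO loop is in the set for its PETs, and the Sham sum depends on how many loops were listed.

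A set of 3 narrow loops was strong in both lists. A loop of 1032 kb in MCAO began 40.6 kb from Mef2c, a transcription factor of neuronal maturation, and ended in a stretch with no gene, with 65 PETs in MCAO and 89 in Sham (1.60 and 2.54 PPM). From Commd1 and Cct4, a chaperonin subunit gene, to the nuclear export gene Xpo1 there were 64 PETs in MCAO and 87 in Sham, a log2 ratio of -0.66 (-1.15 to -0.17). From Fam91a1 to Trmt12 there were 58 in MCAO and 54 in Sham, with -0.11 (-0.67 to 0.45).

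Some narrow loops of MCAO ended at transcription factor genes, given as examples with no share counted. The narrow loop at Pou3f3 had 55 PETs in MCAO and 16 in Sham, with anchors of 34.4 and 16.1 kb on average. Pou3f3 also ended a wide strong loop in each list, with 82 PETs in MCAO and 51 in Sham. At Foxo3 there were 57 in MCAO and 28 in Sham, with anchors of 34.5 and 23.3 kb. At the Notch target gene Hey2 there were 52 in MCAO and 36 in Sham. The loop from Atp6v1c1 to Baalc had the highest enrichment ratio of any strong loop, 54.0, with 54 PETs in MCAO and 32 in Sham. That ratio appears to be computed from PETs. In Sham the first narrow loop joined Snx10, a sorting nexin of osteoclasts and endosomes, to the adaptor gene Skap2. It had 98 PETs in Sham and its counterpart 35 in MCAO, with anchors of 48.5 kb in Sham and 13.8 kb in MCAO. A loop from Gucy1b1, a subunit of the nitric oxide receptor, to Map9 had 81 PETs in Sham. The nearest of its 3 MCAO counterparts had 23 PETs, and the 3 together had 55. In each of these pairs the loop with fewer PETs also had the narrower anchors.

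**Figure D5:**
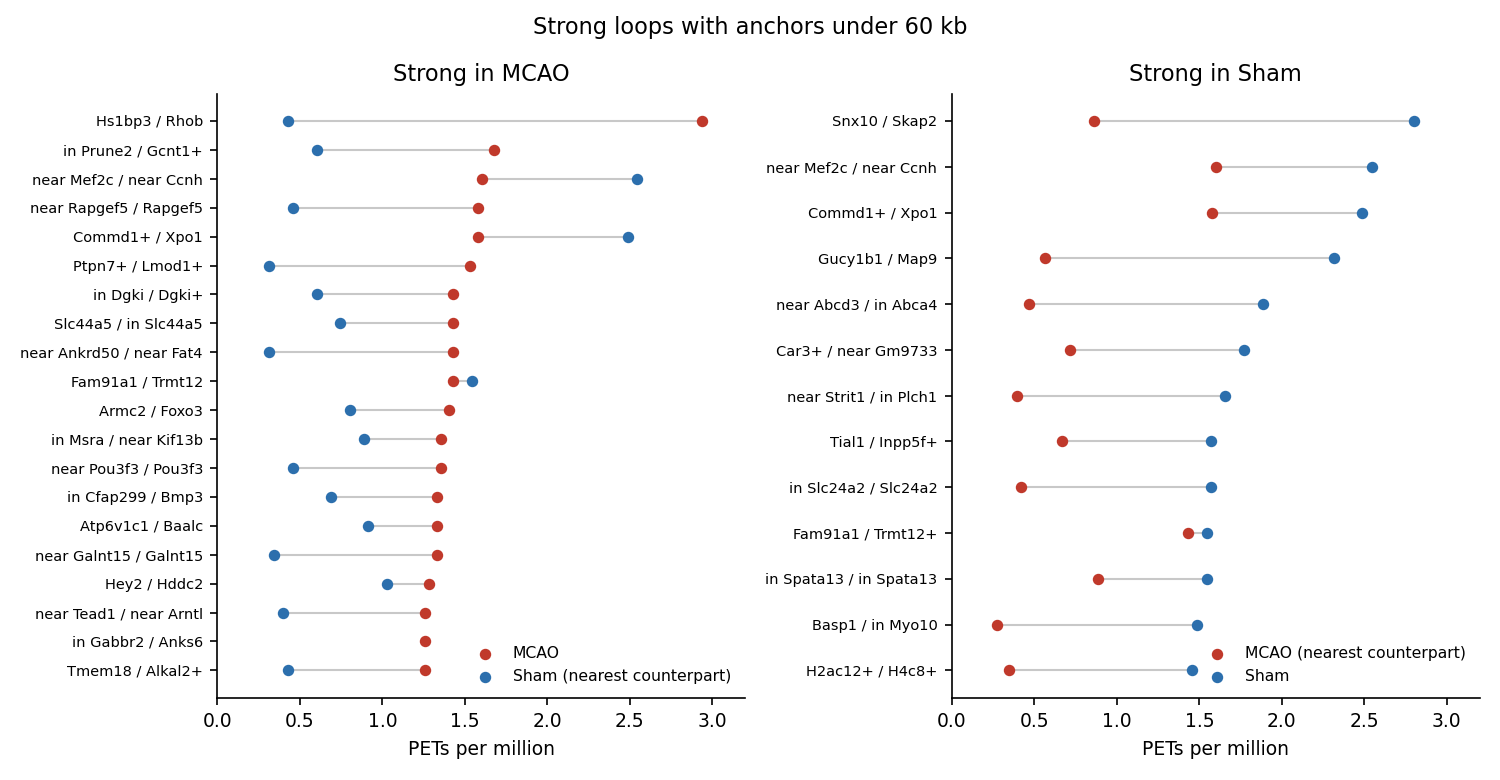
PPM (x, PETs scaled to the library total) of strong loops with anchors under 60 kb, each with its nearest counterpart where it has one. Drawn are 20 of the 22 loops strong in MCAO (left) and the 13 strong in Sham (right). Red is MCAO and blue is Sham. Labels name the first gene at each end, with a plus sign where there are more, "in" for an anchor inside a gene and "near" for the nearest gene otherwise. The loop from Hs1bp3 to Rhob lies at 2.93 in MCAO and 0.429 in Sham, and the loops near Mef2c, at Commd1 and at Fam91a1 are strong in both.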

How the data were processed

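Hi-C was made from frozen cortex, per the labels' protocols, and processed with HiC-Pro and Bowtie2 on mm10, per the submitters' processing notes. The name of the loop caller is not given in the sources used here. Every loop has a whole-number count of PETs, deposited by the authors with no scaling for depth. The signal called density is PETs per kb of anchor per 1000000 PETs, per the file headers and the values. The library total of each list was recovered from it. The enrichment ratio and the p-values per loop are the authors' deposited values. The ratio was used only to describe loops within a list, and the p-values were not used. Only loops of at least 10 PETs are listed.

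PPM are PETs over the library total, times 1000000. Coordinates are given as in the deposited files. Gene positions came from the RefSeq table of GRCm38.p6, the assembly of mm10, with 21900 protein-coding genes and no strand, so either end of a gene counted. Loops on X and Y were left out, among them 2 Sham loops and 0 MCAO loops on X with 51 or more PETs. Shares have exact Clopper-Pearson intervals, PETs exact Poisson intervals, and ratios of PETs conditional exact binomial intervals, all at 95%. Whether PETs are independent molecules is not shown, and the intervals cover counting error alone. No test was made between single libraries. Promoters were matched by position to 16457 autosomal genes.

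The loops named are the 10 with most PETs per list, the 10 with most PETs that lack a counterpart, the first pairs by ratio in each direction, the longest and shortest, and loops at genes of 16 lists. Narrow loops, loops with most genes between anchors and pairs of like width were named after their values were seen. The strong loops and all lists were chosen with earlier results of these data known. Some loops and genes that this rule names are not reported here. Matching was tested on simulated data. Alternatives covered the minimum of PETs, the span and width measures, the gene window, the counterpart rule and the scaling. A distance of 50 kb, the division by anchor width, pairs of like width and PETs per kb of anchor were added after seeing the data. Python 3.11.15, pandas 2.3.3, numpy 2.4.6, scipy 1.17.1 and matplotlib 3.10.9 were used.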

Additional observations from a re-analysis of the deposited data

How the results depend on the processing

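No paired analysis was possible because each group has a single library. With minimums of 41 and 61 PETs the lists held 538 and 164 strong loops in MCAO and 529 and 211 in Sham. A minimum of 60 PETs in MCAO, which gives the PPM of 51 PETs in Sham, left 177 MCAO loops, with a median width of 100.8 kb and a pair ratio of -0.99 on the log2 scale. With 41 PETs the median span was 687 kb in MCAO and 743 kb in Sham, the median width 81.7 and 86.3 kb, the share with a counterpart 76.2% and 84.5%, and the share with a gene end 82.6% in Sham. With 61 PETs the span was 774 kb in MCAO and the width 102.0 kb in MCAO and 103.7 kb in Sham. Between inner anchor edges the median span was 637 kb in MCAO and 683 kb in Sham, and the wider anchor had a median of 107.7 kb in MCAO and 110.0 kb in Sham. With any part of a gene counted, 93.7% of strong loops in MCAO and 94.4% in Sham had a gene at an anchor. Counterparts were found within 0.5 anchor widths for 71.3% in MCAO and 82.9% in Sham, with overlapping anchors for 73.8% and 86.6%, within 50 kb for 66.8% and 81.4%, and within 10 kb for 14.0% in each. Narrow strong loops (22 in MCAO, 13 in Sham) had a median span of 264 kb in MCAO and 289 kb in Sham, a gene end in 81.8% and 69.2%, and a counterpart in 95.5% and 100%. The pair ratio was -0.14 for pairs of like width and -0.12 per kb of anchor. For pairs with a strong loop it was below 0 under every alternative run, several of which changed the set of pairs. For the same 427 pairs it was -0.45 with PETs as deposited. These pairs were chosen by PETs, with 147 strong in MCAO alone and 207 in Sham alone, so the sign is a description. For pairs of like width the sign turned with PETs as deposited, to 0.08, and for pairs strong in both lists it was -0.16 scaled and 0.05 as deposited. The other 41 values moved by less than their intervals or, for counts, less than 1.5-fold.

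Depth limits these lists: loops under 10 PETs are not listed, so a missing counterpart can be a loop just below that. The MCAO library is 1.16 times as deep, and a fixed minimum of PETs is thus lower in PPM in MCAO. PETs rose with anchor width across the listed loops, whose points form separate bands. A difference in PETs between lists thus cannot be told apart from a difference in the extent of the called anchors. What set the anchor widths was not tested.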

Other observations

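Some anchors took part in several strong loops. In MCAO a stretch of chromosome 14 at Zmiz1, a coactivator of nuclear receptors, was in 3 strong loops with 88, 56 and 67 PETs, and 34 other stretches were in 2. In Sham 5 stretches were in 3 and 42 were in 2. The Sham stretches with 3 lay at Mrps30 (191, 90 and 56 PETs), at Neto1, an auxiliary subunit of kainate receptors (151, 63 and 79), at Cadm3 and Aim2 (60, 92 and 135), at Mef2c (89, 99 and 53) and at Eya4, a transcription cofactor of sensory organs (90, 69 and 62).

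Strong loops were spread over all 19 autosomes in both lists. Chromosome 8 had 20 in MCAO and 9 in Sham, which is 2.60% and 1.29% of its loops with overlapping exact intervals. Chromosome 1 had 19 in MCAO and 31 in Sham, which is 1.56% and 2.46% of its loops. Chromosome 15 had 9 in MCAO and 19 in Sham, or 1.24% and 2.94%. The intervals of the 2 lists overlap on both of these chromosomes. Of all autosomal loops, 1.86% in MCAO and 2.22% in Sham were strong. In all, the strong loops held 8.05% of the PETs in the MCAO list and 10.5% of those in the Sham list.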
